A study of Mus musculus with 2 samples.

Results

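The 9 genes described here encode parts of the MHC class I presentation pathway: the light chain B2m, the heavy chains H2-K1 and H2-D1, the peptide transporter Tap1 and Tap2, its bridging factor Tapbp, the immunoproteasome subunits Psmb8 and Psmb9, and the transcriptional regulator Nlrc5. The deposited matrices list 27998 genes with upper-case symbols, and all 9 members (B2M, H2-K1, H2-D1, TAP1, TAP2, TAPBP, PSMB8, PSMB9 and NLRC5) were found among them; mouse-style symbols are used below. The data are single-cell RNA counts of leukocytes from the aortas of ApoE-/- C57BL6/J mice, a strain that lacks apolipoprotein E and is used as a model of atherosclerosis. One library came from mice on a chow diet and one from mice on WD, as the labels call it, and both groups carry the ApoE deletion. Viable CD45+ leukocytes had been sorted, and 10 aortas were pooled for each library, so that each diet is represented by 1 pool; the labels give no ages. Counts are unique molecular identifiers (UMIs), each standing for 1 captured transcript molecule.

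In the mm10 build, by the GENCODE annotation, B2m lies on chromosome 2 (122147686 to 122153083, plus strand) and Nlrc5 on chromosome 8 (94434356 to 94527272, plus strand). The other 7 members lie in the MHC region of chromosome 17, from Tapbp (start 33915899) to H2-D1 (end 35267499), with Psmb9, Tap1, Psmb8 and Tap2 as adjacent protein-coding genes between 34181987 and 34216321.

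MHC class I molecules display peptides from a cell's own proteins to CD8 T cells. The proteasome cuts the proteins, with inducible catalytic subunits replacing the standard ones in many immune cells. The TAP transporter moves the peptides into the endoplasmic reticulum, tapasin helps load them onto heavy chains, and B2m stabilises the complex on its way to the surface. Nlrc5 drives transcription of class I genes through a promoter module shared by many of them, and interferon induces most of the pathway. In the thymus, immature thymocytes that carry both Cd4 and Cd8 are known for low surface class I compared with mature T cells.

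Cells were assigned to classes by the UMIs of marker genes of each leukocyte type. Of 892 chow diet cells and 2059 WD cells that passed the filters, 770 and 1765 fell into a class. Thymocyte-like cells were T-lineage cells with at least 1 UMI of Dntt, the template-free DNA polymerase of antigen receptor rearrangement, and at least 2 UMIs of Dntt, Rag1 and Ptcra together. They numbered 178 in the chow diet library (20.0% of its cells) and 188 in the WD library (9.13%). Mature T cells were T-lineage cells with no UMI of these 3 genes, 236 and 498 in number. Genes outside the rule were checked against the label. Cd8b1 was seen in 91.0% and 90.4% of thymocyte-like cells, against 47.5% and 50.8% of mature T cells and 9.88% and 3.90% of B cells. Cd4 was seen in 59.0% and 48.9% of thymocyte-like cells, against 26.7% and 14.5% of mature T cells. Arpp21, a gene of immature lymphocytes, was seen in 79.2% and 83.0%, against 1.69% and 0.602% of mature T cells. Median depth was 4361.5 and 4721 UMIs in thymocyte-like cells and 3467 and 3019 in mature T cells.

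The promoters of B2m, H2-K1 and H2-D1, the class I chains, are shown first, since the classical class I promoters share a module to which Nlrc5 is recruited, and that of Tap1 is shown beside them as one without the paired elements. RefSeq windows of 300 bases (GRCm38.p6, 250 bases before to 50 after the transcription start, 5′ to 3′ on the gene's strand) were given for 7 of the 9 members, all but Tap2 and Nlrc5. Capitals mark TGACG and, downstream of it, ATTGG, the inverted CCAAT; these letters correspond to the X2 and Y boxes of the module.
B2m, chr2:122147437-122147736, plus strand: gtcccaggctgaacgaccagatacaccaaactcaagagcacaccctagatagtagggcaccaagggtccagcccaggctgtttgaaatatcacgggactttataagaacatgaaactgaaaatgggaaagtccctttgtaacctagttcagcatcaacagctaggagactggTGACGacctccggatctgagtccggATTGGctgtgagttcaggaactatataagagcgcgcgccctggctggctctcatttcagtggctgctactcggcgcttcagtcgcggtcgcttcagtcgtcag
H2-K1, chr17:34000298-34000597, minus strand: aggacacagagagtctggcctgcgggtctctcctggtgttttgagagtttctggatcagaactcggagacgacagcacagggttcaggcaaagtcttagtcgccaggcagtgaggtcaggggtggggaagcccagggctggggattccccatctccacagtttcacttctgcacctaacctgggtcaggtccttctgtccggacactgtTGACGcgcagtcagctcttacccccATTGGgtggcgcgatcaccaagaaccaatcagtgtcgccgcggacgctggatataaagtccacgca
H2-D1, chr17:35262844-35263143, plus strand: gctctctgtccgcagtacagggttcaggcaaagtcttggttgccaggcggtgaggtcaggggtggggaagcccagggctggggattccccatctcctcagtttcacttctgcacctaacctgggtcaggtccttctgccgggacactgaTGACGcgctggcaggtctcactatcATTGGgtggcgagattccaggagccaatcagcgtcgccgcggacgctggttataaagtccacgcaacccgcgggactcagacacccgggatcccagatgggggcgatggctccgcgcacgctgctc
Tap1, chr17:34187306-34187605, plus strand: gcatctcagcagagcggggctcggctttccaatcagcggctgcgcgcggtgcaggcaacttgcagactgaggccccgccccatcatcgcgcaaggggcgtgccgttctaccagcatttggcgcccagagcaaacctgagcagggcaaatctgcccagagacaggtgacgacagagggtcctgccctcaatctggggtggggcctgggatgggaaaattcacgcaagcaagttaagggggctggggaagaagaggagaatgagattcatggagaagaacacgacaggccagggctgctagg
In B2m, H2-K1 and H2-D1 exactly 20 bases lay between both elements. A TGACG followed by ATTGG after 15 to 25 bases, on either strand, was found in 143 of 32851 windows of this length (0.435%), and in 3 of the 7 members. The spacing range was chosen after the windows had been read, so the share describes how rare the arrangement is and is no test. The Tap1 window had no such pair. It overlaps that of Psmb9, which is transcribed from the opposite strand, by 275 bases, and the windows of Psmb9, Tapbp and Psmb8 had no pair either. The same 3 windows, B2m, H2-K1 and H2-D1, each held AANNGAAA, a core of interferon regulatory factor sites, on either strand, as did 23.9% of all windows, and the kappa B consensus, as did 8.46%. Neither was found in the windows of the other 4 members. Among the other class I heavy chain genes with a window, H2-M3 held the pair with a gap of 20 bases and H2-Q7 with 19. The windows of H2-Q2, H2-Q4, H2-Q6, H2-Q10, H2-T22, H2-T23 and Mr1 had no pair. All these other heavy chain windows, with and without the pair, held AANNGAAA. A match describes letters in a window and does not show binding.

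B2m, H2-K1 and H2-D1 had their lowest levels in thymocyte-like cells. Levels are given as UMIs per 1000000 UMIs of the class (CPM) with exact 95% Poisson intervals, which cover counting error only; with 1 library per diet there is no replicate error and no test between classes or diets. B2m stood at 1097 CPM (1036 to 1162) in chow diet thymocyte-like cells and 1158 CPM (1094 to 1225) in WD ones. In mature T cells it stood at 5592 CPM (5439 to 5748) and 5793 CPM (5678 to 5909). The intervals of both classes lay far apart in each library, and B2m was 5.10-fold lower (95% interval 4.78 to 5.43) (chow diet) and 5.00-fold lower (4.71 to 5.31; WD).

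The classical heavy chains H2-K1 and H2-D1, which hold the peptide, differed more than the light chain. H2-K1 was at 129 and 117 CPM in thymocyte-like cells of the chow diet and WD libraries, against 1687 and 1606 CPM in mature T cells. It was 13.1-fold (11.0 to 15.7) and 13.7-fold (11.5 to 16.6) lower. H2-D1 was at 436 and 355 CPM against 2847 and 2935 CPM, 6.53-fold (5.91 to 7.22) and 8.27-fold (7.44 to 9.21) lower. Both heavy chains thus kept the same order in both libraries. The ratio of H2-K1 to H2-D1 UMIs was 0.295 and 0.330 in thymocyte-like cells and 0.592 and 0.547 in mature T cells. Of 75-base stretches in the last 500 bases of their transcripts, 4.31% for H2-K1 and 10.1% for H2-D1 occur in other genes, mostly class I genes, and none for B2m; the sources used here do not say how such reads were counted, so the heavy chain levels are uncertain to that extent.

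The Tap1 and Tap2 genes, which encode both subunits of the peptide transporter, went in opposite directions. Tap1 was at 69.9 and 48.5 CPM in thymocyte-like cells against 103 and 95.1 CPM in mature T cells, 1.47-fold (1.07 to 2.01) and 1.96-fold (1.42 to 2.74) lower. Tap2 was at 268 and 239 CPM against 125 and 110 CPM, 2.15-fold (1.72 to 2.70) and 2.17-fold (1.79 to 2.64) higher. There were 3.83 and 4.92 Tap2 UMIs for each Tap1 UMI in thymocyte-like cells, and 1.22 and 1.16 in mature T cells. Tapbp, which encodes tapasin, was at 58.7 and 44.7 CPM against 142 and 144 CPM, 2.42-fold (1.78 to 3.33) and 3.22-fold (2.35 to 4.51) lower.

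The immunoproteasome subunits differed less between the classes than the class I chains. Psmb8 was at 673 and 575 CPM in thymocyte-like cells and at 453 and 547 CPM in mature T cells. That is 1.49-fold higher (1.31 to 1.68) in the chow diet library, while the WD ratio of 1.05 (0.947 to 1.17) has an interval that includes 1. Psmb9 was at 165 and 153 CPM against 189 and 209 CPM, a ratio of 0.876 (0.706 to 1.09) for chow diet and 1.37-fold lower (1.13 to 1.66) for WD. Nlrc5, the regulator, gave 3 UMIs in all thymocyte-like cells of each library, against 31 and 43 in mature T cells. Its levels were 12.2-fold (3.81 to 62.4) and 9.01-fold (2.88 to 45.4) lower, with wide intervals because so few UMIs were counted.

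**Figure D1:**
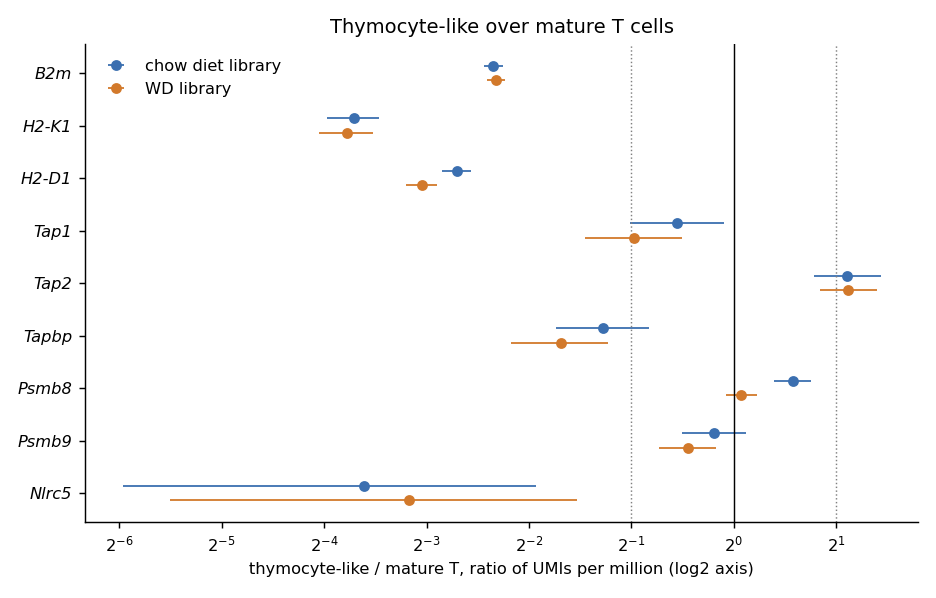
Ratio of CPM in thymocyte-like over mature T cells for each member gene and library, on a log2 axis, with exact 95% intervals for counting error; the dotted lines mark 2-fold. B2m, H2-K1, H2-D1, Tapbp and Nlrc5 lie below the lower dotted line in both libraries, and Tap2 lies above the upper one.

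In all, 5 of the 9 members were at least 2-fold lower in thymocyte-like cells in both libraries, and 1, Tap2, was at least 2-fold higher. Of all 7135 genes with at least 20 UMIs, 8.61% were at least 2-fold lower in both libraries and 21.1% at least 2-fold higher. The median log2 ratio was -1.27 (chow diet) and -1.68 (WD) over the members and 0.48 and 0.38 over all genes, a shift of the whole scale against which member differences should be read. Against it Tap2 stood less far out than the class I chains: 74.0% and 77.2% of genes had a lower log2 ratio than Tap2. Only 1.64% and 1.68% had one lower than H2-K1. When levels were scaled without ribosomal protein and mitochondrial genes, the all-gene medians were 0.23 and 0.15, the same 5 members remained at least 2-fold lower, as were 11% of all genes, and Tap2 was no longer 2-fold higher in both.

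The difference was carried by most cells and not by a few. With each cell thinned to 1000 UMIs, thymocyte-like cells had a median of 1 B2m UMI in both libraries and mature T cells 5 (chow diet) and 6 (WD). No B2m UMI was left in 42.1% and 42.6% of thymocyte-like cells, against 2.12% and 1.20% of mature T cells; before thinning, 89.3% and 89.9% against 99.6% and 100% held at least 1. H2-K1 was at 0 in 92.7% and 92.6% of thinned thymocyte-like cells and in 27.5% and 24.3% of mature T cells. H2-D1 was at 0 in 68.0% and 76.1%, against 11.0% and 7.63%. Only 1.69% and 3.72% of thymocyte-like cells reached the mature T median of B2m.

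**Figure D2:**
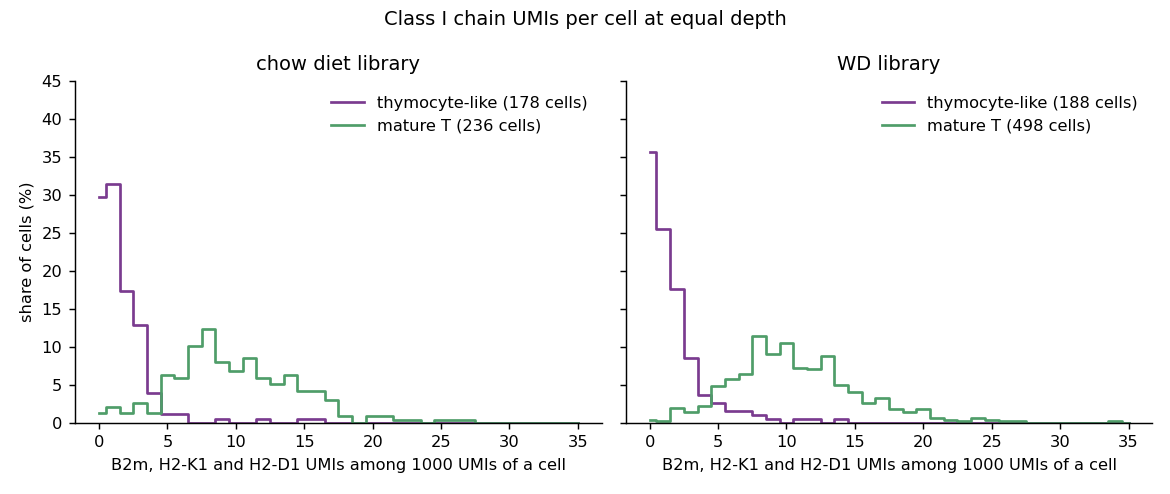
Share of cells (%) by the summed UMIs of B2m, H2-K1 and H2-D1 among 1000 UMIs drawn from each cell, for thymocyte-like and mature T cells of each library. Most thymocyte-like cells hold 3 or fewer of these UMIs, and most mature T cells hold 5 or more.

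Thymocyte-like cells were not uniform in these genes. Those with at least 3 UMIs of mitotic genes (85 and 106 cells, median depth 8063 and 6606.5 UMIs) had lower levels of the class I chains than those with fewer than 3 mitotic and fewer than 3 S phase UMIs (83 and 76 cells, 1998 and 1721.5 UMIs). B2m was at 826 and 879 CPM in the former and 1764 and 2424 CPM in the latter, 2.13-fold (1.87 to 2.43) and 2.76-fold (2.44 to 3.11) lower. H2-K1 was 2.89-fold and 3.36-fold lower and H2-D1 2.67-fold and 2.66-fold lower. The proteasome subunits ran the other way. Psmb8 was 1.61-fold (1.29 to 2.04) and 1.46-fold (1.14 to 1.90) higher in the mitotic group, and Psmb9 1.88-fold (1.17 to 3.16) and 1.62-fold (0.989 to 2.82). The intervals of Tap2 included 1, with ratios of 0.857 (0.643 to 1.16) and 1.01 (0.720 to 1.44). Depth moved with this split, and its part in the result was not tested.

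Against mature T cells, the thymocyte-like cells with neither gene set had 3 members, B2m, H2-K1 and H2-D1, at least 2-fold lower in both libraries, as were 7.1% of the 5197 genes with at least 20 UMIs in that comparison. Their log2 ratios were -1.66 and -1.26 for B2m, -2.75 and -2.53 for H2-K1 and -1.80 and -2.04 for H2-D1. Tapbp had -0.21 and -0.96 there, Nlrc5, on 1 and 3 UMIs, -2.60 and -0.58, and Psmb8 -0.023 and -0.42. Psmb9 was lower than in the whole class, at -0.94 and -1.03, while Tap1 had -0.79 and -0.61 and Tap2 1.28 and 1.11. T-lineage cells that met neither definition (19 and 23 cells) lay between both classes in the class I chains, with B2m at 2992 CPM (2576 to 3457) and 4445 CPM (4018 to 4906). Their Tap1, on 7 and 12 UMIs, was at 114 and 135 CPM, above both classes.

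RNA of other cells can enter any droplet, and its level was read from genes of other cell types. Of 77 markers of 12 other classes, 26 (chow diet) and 37 (WD) had no UMI in thymocyte-like cells. Summed levels of a list ranged from 6.53 to 270 CPM and from 1.90 to 289 CPM in thymocyte-like cells, and from 0 to 99.2 CPM and from 0 to 124 CPM in mature T cells. In a class's own cells they ranged from 650 to 207740 CPM and from 735 to 174179 CPM; the gate itself limits these sums in T-lineage cells. The highest thymocyte-like sums were those of the NK list, led by Gzma, and of the plasmacytoid list. Gzma gave 239 (chow diet) and 302 (WD) UMIs in thymocyte-like cells, while 5 and 4 of the 7 NK genes had none. In the plasmacytoid list 2 and 3 of 5 genes had none. Whether thymocyte-like cells themselves express Gzma or the remaining plasmacytoid genes was not tested. As a share of their level in the other cells of the library, 12 genes of other cell types had a median of 2.53% (0 to 58.4%) in chow diet thymocyte-like cells and 2.06% (0.590 to 93.6%) in WD ones. Gzma was the highest of the 12 in both, and Apoe, at 37.9% and 16.6%, and Cd79b, at 22.3% and 12.0%, came next. The Apoe shares rested on 4 and 2 UMIs, against 9.83 and 11.5 CPM in the other cells of these ApoE-/- libraries. B2m was at 23.9% and 24.6%, H2-K1 at 10.5% and 10.4% and H2-D1 at 16.01% and 13.02%, within the range of the 12 genes and above their median. Of the 12 genes, only Gzma and Apoe in the chow diet library and only Gzma in the WD library lay above B2m. How much of the remaining class I signal comes from such RNA was not tested.

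Genes around the members were read from lists. Most other class I heavy chain genes resembled H2-K1 and H2-D1: of 10 measured, 7 were at least 2-fold lower in both libraries, against 8.61% of all genes. Another 2 were at least 2-fold higher, near the 21.1% of all genes that were. The median log2 ratio of the 10 was -1.60 and -1.57. H2-Q7, a nonclassical chain of the Qa-2 family, was at 36.4 and 43.8 CPM against 551 and 626 CPM, with log2 ratios of -3.90 and -3.83. H2-Q4 had -1.92 and -2.07, H2-T22 -1.30 and -1.22, and H2-T23, which encodes Qa-1, -1.14 and -1.28. H2-Q2 and Mr1, named after their values were seen, went against the list: H2-Q2 was at 97.0 and 62.8 CPM against 3.31 and 3.59 CPM, and Mr1, which presents vitamin B metabolites, at 29.8 and 40.0 CPM against 5.51 and 4.19 CPM. Sequence sharing reaches 32.2% of the last 500 bases for H2-Q6 and 6.05% for H2-Q7, so the split between these genes is uncertain.

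Other genes of peptide trimming and loading differed less than the class I chains. None of 11 was at least 2-fold lower in both libraries, near the 8.61% of all genes that were, and none was at least 2-fold higher. Their median log2 ratio was -0.21 in each library, below the 0.48 and 0.38 of all genes, and 6 of the 11 were lower in both. Scaled without ribosomal protein and mitochondrial genes, 1 of the 11, Lnpep, was at least 2-fold lower, against 11% of all genes. The chaperone Calr had 0.19 and -0.21, and Pdia3, a partner of tapasin in the loading complex, -0.21 and -0.24. Of 4 other inducible proteasome parts only Psme2, which forms the PA28 activator with Psme1, was at least 2-fold lower in both, at -1.06 and -1.33. Psme1 had -0.80 and -0.81, Psmb10, the remaining immunoproteasome subunit, -0.12 and -0.68, and the assembly factor Pomp 0.68 and 0.60. All 14 genes of the constitutive proteasome core had log2 ratios above 0 in both libraries, 6 of them at least 2-fold, against 21.1% of all genes. Their medians were 0.99 and 1.01, against 0.48 and 0.38 over all genes. Scaled without ribosomal protein and mitochondrial genes, 13 were above 0 and 3 of the 14 at least 2-fold higher. The share of all genes at least 2-fold higher at that scaling is not given here. Nor is the share of all genes above 0 at either scaling, so these counts describe the list only. Those with the most UMIs were Psmb1, with 0.17 and 0.09, Psma7, with 0.85 and 0.79, Psma3, with 0.72 and 0.46, and Psma2, with 0.83 and 0.87. Psmb5, the standard counterpart of Psmb8, had 1.60 and 1.67 and was named after its values were seen.

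Regulators and interferon response genes were lower in larger numbers. Of 22 regulators of class I genes, 7 were at least 2-fold lower and 1, Nfyb, at least 2-fold higher in both libraries. Over all genes these shares were 8.61% and 21.1%. Jak1, a receptor kinase, had log2 ratios of -1.17 and -1.65, and Nfkb1 -1.95 and -1.89. The others of the 4 regulators with the most UMIs were less than 2-fold lower in both libraries. Nfyb was named after its values were seen. Of 19 interferon response genes, 13 were at least 2-fold lower, against the same 8.61% of all genes. Only 1, Ly6e, which marks thymocytes as well, was at least 2-fold higher, and the list medians were -1.71 and -1.79. Ifi203 had -2.42 and -2.87, Isg15 -1.36 and -0.79, and Bst2 -0.60 and -0.42. In thymocyte-like cells without cycling genes, the counts at least 2-fold lower were 7 of 19 interferon response genes, 1 of 22 regulators (Irf7) and 4 of 10 heavy chains, against 7.1% of all genes. MHC class II genes mostly changed direction between the libraries, with list medians of 1.28 for chow diet and -1.28 for WD. Cd74, the invariant chain, had 1.51 for chow diet and -1.60 for WD. Few cells carried much of this: 1 chow diet thymocyte-like cell held 408 of the 936 Cd74 UMIs of its class. Likewise 1 WD mature T cell held 261 of 1104. The median per cell was 1 in both classes of the chow diet library and 0 in both of the WD library. Leaving out the T-lineage cells with 5 or more Cd74 UMIs (7 and 3 thymocyte-like cells, 2 and 10 mature T cells) left 5 members at least 2-fold lower, against 8.6% of all genes.

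**Figure D3:**
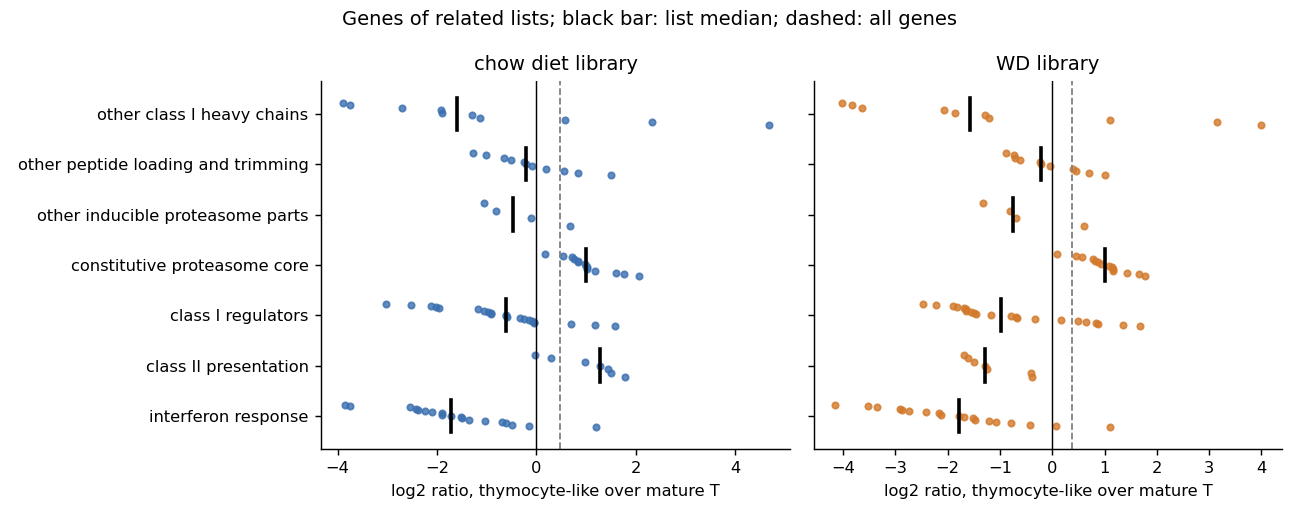
Log2 ratio of CPM in thymocyte-like over mature T cells for each measured gene of 7 lists, by library; black bars are list medians and the dashed line is the median of all genes. Heavy chains, regulators and interferon response genes have medians below 0 in both libraries, and the constitutive proteasome core lies above 0. The class II median changes side between the libraries, with much of the Cd74 sum in few cells.

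Across the 10 classes with at least 20 cells in both libraries, thymocyte-like cells were lowest for B2m, H2-K1, H2-D1, Tapbp and Nlrc5 and highest for Tap2 and Psmb8 by the mean of both libraries. Nlrc5 was scarce throughout: in chow diet conventional type 2 dendritic cells (cDC2) it had 0 UMIs, with an exact interval that reaches 15.5 CPM (12.6 CPM is the level of 3 UMIs there). The spread between classes came largely from the thymocyte-like cells: the highest class exceeded the lowest 5.13-fold for B2m, 18.9-fold for H2-K1 and 10.4-fold for H2-D1, and 1.65-fold, 3.30-fold and 1.93-fold with thymocyte-like cells set aside. For B2m, CD8 T, CD4 T, NK, ILC2 and T cells without Cd4 or Cd8 UMIs lay between 5212 and 5982 CPM in both libraries, and between neighbours in that order the lower library of the one was never above the higher library of the next. B cells were lower, at 3794 and 3726 CPM, and cDC2 cells at 3530 and 3495 CPM.

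The heavy chains ordered the classes differently from each other. H2-K1 was highest in NK cells, at 2696 CPM (2382 to 3039) and 1946 CPM (1732 to 2181), and in ILC2 cells, the type 2 innate lymphoid cells, at 2222 and 1813 CPM. It was lower in macrophages, at 875 and 943 CPM, monocytes, at 807 and 760 CPM, and cDC2 cells, at 698 and 708 CPM. H2-D1, in contrast, stood at 3019 and 3513 CPM in macrophages, above the 2847 and 2935 CPM of mature T cells. There were 0.290 and 0.268 H2-K1 UMIs for each H2-D1 UMI in macrophages, 0.260 and 0.290 in monocytes and 0.277 and 0.322 in cDC2 cells, against 0.643 and 0.482 in NK cells and 0.592 and 0.547 in mature T cells. The ratio was thus lower in the 3 myeloid classes than in NK and mature T cells in both libraries, and B cells lay between at 0.396 and 0.428.

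**Figure D4:**
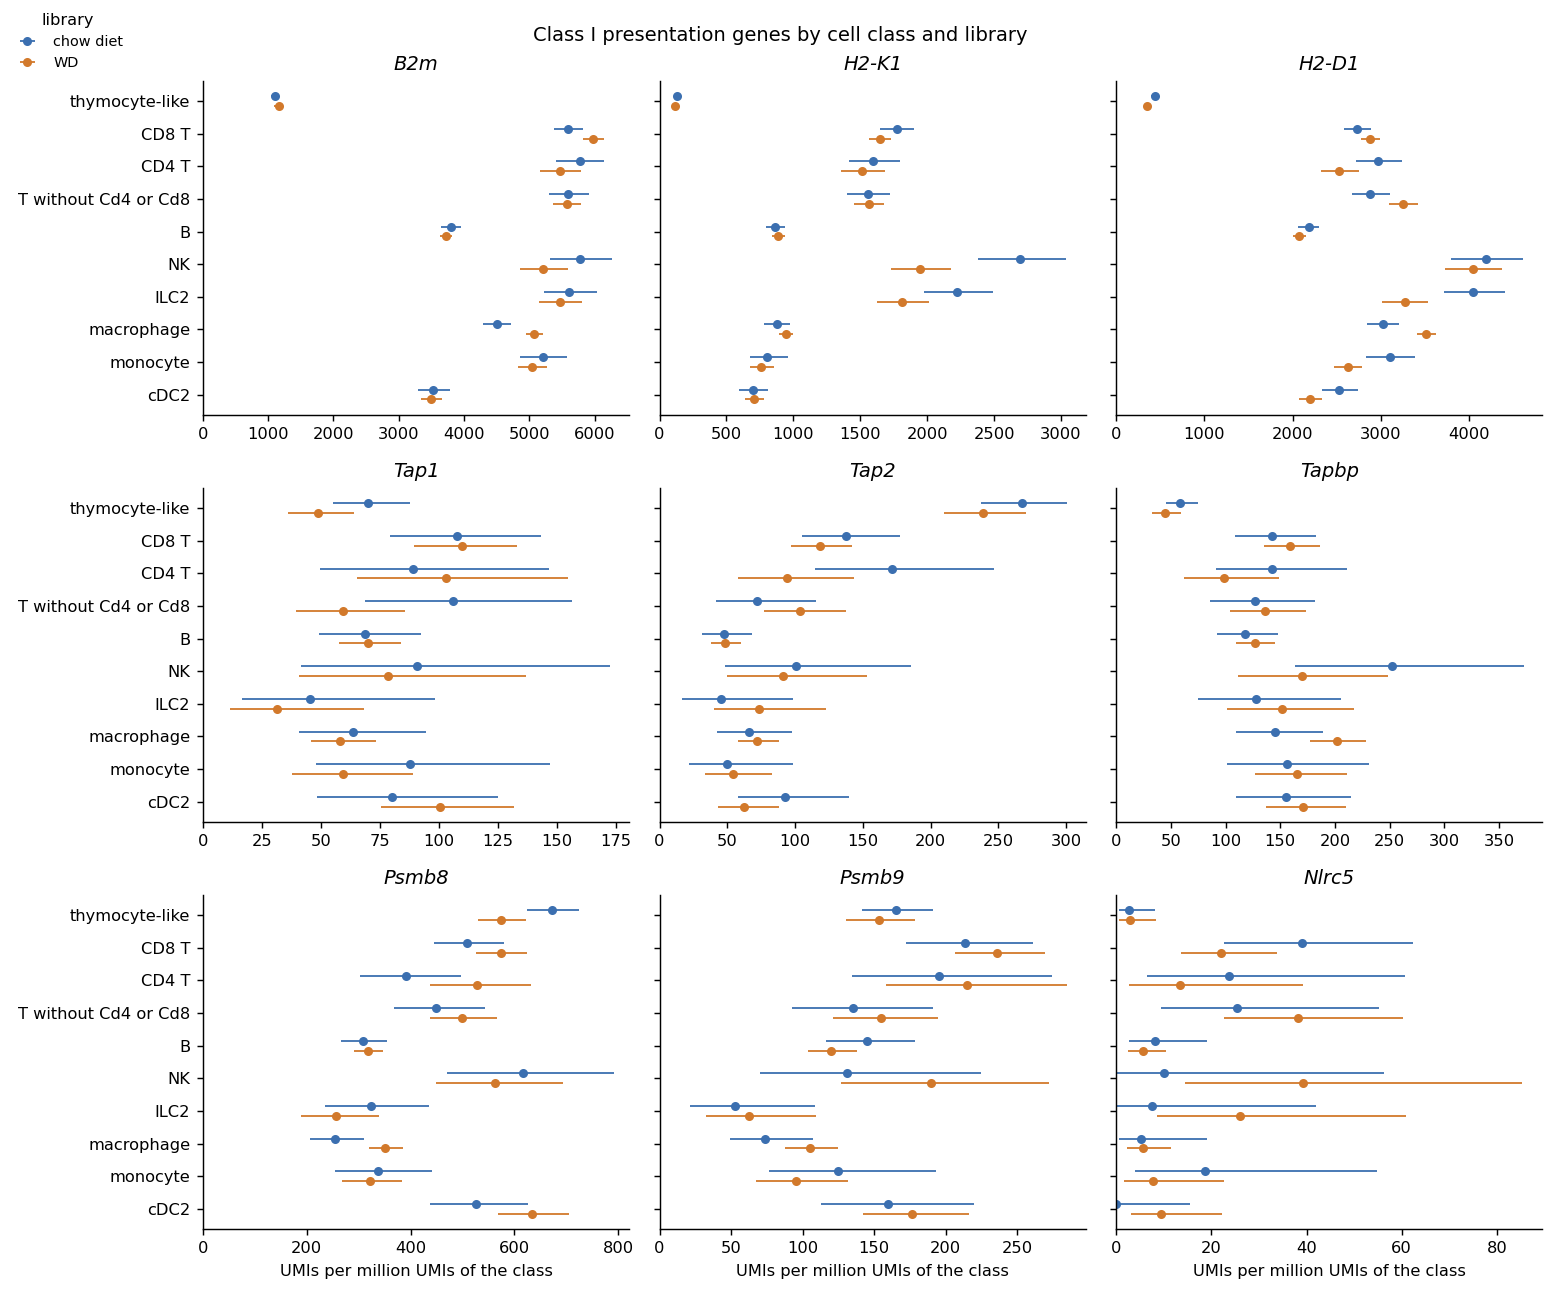
CPM for each member gene in 10 cell classes, by library, with exact 95% Poisson intervals for counting error. Thymocyte-like cells lie apart at the low end for B2m, H2-K1 and H2-D1 and at the high end for Tap2, while ILC2 cells are at the low end for Tap1, Psmb8 and Psmb9.

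ILC2 cells (34 and 63) combined high class I chains with low Psmb8, Psmb9 and Tap1. B2m was at 5613 and 5471 CPM, ratios of 1.00 (0.928 to 1.08) and 0.944 (0.885 to 1.01) to mature T cells, and H2-D1 was 1.42-fold (1.29 to 1.56) and 1.11-fold (1.02 to 1.21) higher. Psmb9 was at 52.7 and 62.7 CPM, 3.57-fold (1.70 to 9.02) and 3.34-fold (1.89 to 6.53) lower than in mature T cells. Psmb8 was 1.40-fold (1.02 to 1.96) and 2.14-fold (1.60 to 2.91) lower. Tap1, on 6 UMIs in each library, was 2.27-fold (1.00 to 6.34) and 3.03-fold (1.36 to 8.39) lower. ILC2 cells thus paired high B2m and heavy chains with the lowest Psmb8 and Psmb9 of the 10 classes, while thymocyte-like cells paired the lowest chains with the highest Psmb8, all by the mean of both libraries. Neither Psmb8 rank held in each library. In WD, cDC2 cells had 634 CPM and thymocyte-like cells 575 CPM. On chow diet, ILC2 cells had 324 CPM, B cells 308 CPM and macrophages 254 CPM. Thymocyte-like cells with neither cycling gene set had Psmb8 at 446 and 408 CPM, below mature T cells.

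Psmb8 and Psmb9 were higher still in small dendritic cell classes. Type 1 conventional dendritic cells (cDC1; 4 and 9 cells), which are specialised in cross-presentation on class I, had Psmb9 at 554 CPM (351 to 831) and 670 CPM (496 to 886), and Psmb8 at 1324 and 998 CPM. Mature dendritic cells (4 and 19 cells) had Psmb8 at 829 CPM (571 to 1164) and 1773 CPM (1535 to 2038) and B2m at 6606 and 8891 CPM. With so few cells these values describe those cells only.

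Between the diets, most member levels were close. In the 7 classes with at least 30 cells in each library, 57 of the 63 class and gene pairs differed by less than 1.5-fold. In all, 12 intervals excluded 1, 6 above and 6 below. The share of all genes with such intervals is not given here, so their number describes the members only. Among members with at least 20 UMIs, 1 was at least 1.5-fold lower in WD in each of CD8 T cells, CD4 T cells and T cells without Cd4 or Cd8 UMIs, where 8.93%, 13.5% and 8.98% of all genes were. None was at least 1.5-fold higher there, against 11%, 9.62% and 15.3% of all genes. In ILC2 cells 1 member was higher and none lower, against 11.1% and 15.5% of all genes. There were none in either direction in thymocyte-like cells (5.22% of all genes higher, 10.5% lower), B cells (7.93% and 11.6%) or macrophages (14.2% and 11.6%). Median member log2 ratios of WD over chow diet ran from -0.16 in thymocyte-like cells to 0.17 in macrophages. The diet and the pool of mice cannot be told apart.

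Macrophages had the most members with an interval above 1. B2m was at 4507 CPM on chow diet and 5077 CPM on WD, a ratio of 1.13 (1.07 to 1.19). H2-D1 was at 3019 and 3513 CPM, a ratio of 1.16 (1.09 to 1.24). Tapbp had a ratio of 1.39 (1.03 to 1.89) and Psmb8 of 1.38 (1.11 to 1.75). With each cell thinned to 1000 UMIs these last ratios turned, to log2 values of -0.41 for Tapbp and -0.073 for Psmb8.

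Other pairs went the opposite way. In thymocyte-like cells H2-D1 was at 436 and 355 CPM, a ratio of 0.813 (0.708 to 0.934), and Psmb8 at 673 and 575 CPM, a ratio of 0.854 (0.765 to 0.953). In ILC2 cells the ratios were 0.816 (0.697 to 0.956) for H2-K1 and 0.807 (0.718 to 0.908) for H2-D1. In CD4 T cells H2-D1 had 0.853 (0.755 to 0.964), and Tap2, on 29 and 21 UMIs, 0.548 (0.297 to 0.994), which thinning turned to a log2 ratio of 0.24. In CD8 T cells B2m had 1.07 (1.02 to 1.12), and in T cells without Cd4 or Cd8 UMIs H2-D1 had 1.13 (1.03 to 1.24).

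**Figure D5:**
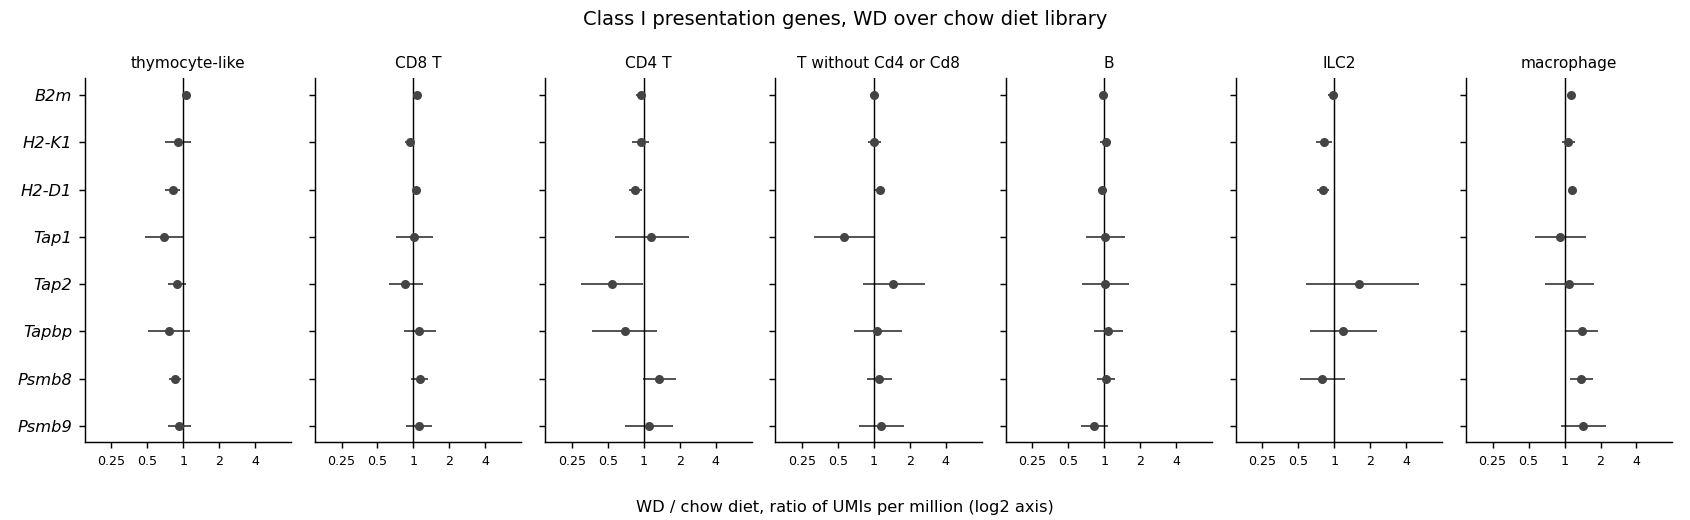
Ratio of CPM in the WD over the chow diet library for 8 members in 7 classes, on a log2 axis, with exact 95% intervals for counting error; pairs with fewer than 20 UMIs and Nlrc5 are not drawn. B2m, H2-K1 and H2-D1 lie near 1 in each class drawn, and wide intervals mark the genes with few UMIs.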

How the data were processed

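Single-cell RNA was measured in 1 library of the chow diet group and 1 of the WD group. The deposited values are whole UMI counts per gene and barcode; per the labels and the submitters' processing notes they were made with the 10x Genomics 3' v2 kit, Cell Ranger and STAR on mm10, versions not given in the sources used here. The libraries held 909 and 2077 barcodes, 4608033 and 8782901 UMIs (1493 to 25141 and 1414 to 28099 per barcode), and shared 3 barcodes. Barcodes with fewer than 200 genes (2 and 0), over 10% mitochondrial UMIs (11 and 16) or a doublet call by Scrublet (scanpy 1.11.5; 4 and 2 calls, fewer than expected) were removed, so doublets may remain. Ptprc, which encodes CD45, was seen in 77.9% and 68.2% of cells.

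A cell took the class with the highest summed marker UMIs, if at least 3 UMIs came from at least 2 genes and exceeded every other list at least 2-fold. UMIs were summed per class and library and scaled to CPM. Ratios have exact conditional 95% intervals, and log2 ratios had 0.5 UMIs added; these cover counting error only. No test was possible across 1 library per group. Class totals set the precision of each level. Gene strand use in counting is not given in the sources used here. B2m and Patl2, and Psmb8 and Gm20496, overlap on opposite strands within the last 500 bases of the member. Whether their reads were kept apart by strand was not checked. Overlaps of Tap1 with Psmb9 and those of Tap2, Tapbp and Nlrc5 lie outside these bases, at which a 3' kit mostly reads. Symbols were matched by gene ID. The ratio calculation was tested on simulated data.

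The named genes were the 9 members and up to 4 genes of each other list with the most UMIs; others are said to be named after their values were seen. Members, lists and rules were chosen with earlier results of these data known. Alternatives changed the gate, the scaling, the depth, the filters and the added UMIs, 1 at a time. One gene of the regulator list is counted in its list but not reported here by itself.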

Additional observations from a re-analysis of the deposited data

Results flagged for a closer look

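For 2 members the WD over chow diet ratio had intervals above 1 in some classes and below 1 in others; the difference between classes was not tested. H2-D1 had log2 ratios of 0.17 in T cells without Cd4 or Cd8 UMIs and 0.22 in macrophages, and of -0.30 in thymocyte-like cells, -0.23 in CD4 T cells and -0.31 in ILC2 cells. Psmb8 had 0.47 in macrophages and -0.23 in thymocyte-like cells, and the macrophage value was -0.073 with cells thinned to 1000 UMIs. With 1 library per diet, these are differences between libraries.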

How the results depend on the processing

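No paired analysis was possible because each diet has 1 library and the labels carry no replicate numbers. The count of members at least 2-fold lower in thymocyte-like cells was 5, and 4 with a mean over cells or with cells thinned to 1000 UMIs. The share of all genes under these settings is not given here, so the count of 4 describes the members only. Using only thymocyte-like cells without cycling genes, chosen after seeing the data, it was 3, the median member log2 ratio in the WD library was -0.96, and the Psmb8 log2 ratio in the chow diet library was -0.023. Thinning turned 3 diet ratios: Tap2 in CD4 T cells to 0.24, Tapbp in macrophages to -0.41 and Psmb8 in macrophages to -0.073. Over 12 alternatives the log2 ratio of thymocyte-like over mature T cells ranged from -2.61 to -1.66 (chow diet) and -2.56 to -1.26 (WD) for B2m, from -3.97 to -2.75 and -4.21 to -2.53 for H2-K1, and from -2.96 to -1.80 and -3.31 to -2.04 for H2-D1. The gates without shared barcodes and with fewer than 5 Cd74 UMIs were added after seeing the data. Nlrc5 is limited by depth, at 3 UMIs in each thymocyte-like class.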

Other observations

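The genes whose profile over 14 class and library levels in 7 classes was most like the summed B2m, H2-K1 and H2-D1 level, among 3148 candidates, were Cd53 (Pearson r 0.988), Prr13 (0.981), Slc3a2 (0.979), Tmsb4x (0.972) and S100a6 (0.963). These points share libraries and depth, so the values are descriptions. Tmsb4x, which encodes an actin-binding peptide, was at 3513 CPM in thymocyte-like cells and 14740 CPM in mature T cells. For the sum of the other 6 members the closest were Il16 (0.938), Sh2d1a (0.938), Actn1 (0.935), Lck (0.922) and Mxd4 (0.920). Lck, the kinase of T cell receptor signalling, was at 1194 CPM in thymocyte-like cells and 645 CPM in mature T cells.

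Within CD8 T cells, those with at least 3 UMIs of Ccl5, a chemokine of effector and memory cells (56 and 172 cells), were set against those with no Ccl5 and at least 1 UMI of Lef1, Dapl1 or Ccr7 (41 and 68 cells). H2-D1 was at 3052 and 3149 CPM in the former and 2129 and 2415 CPM in the latter, 1.43-fold (1.26 to 1.64) and 1.30-fold (1.19 to 1.43) higher. H2-K1 was 1.54-fold (1.31 to 1.82) and 1.14-fold (1.01 to 1.29) higher, and B2m 1.10-fold and 1.08-fold. Psmb8 was 1.76-fold (1.27 to 2.49) higher in the chow diet library, with a ratio of 1.09 (0.895 to 1.34) in the WD library.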
